A study of Mus musculus with 4 samples.

Results

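Macrophages and microglia, the resident macrophages of the brain, were followed through 39 of their genes in 4 sorted mouse cell populations. The genes were chosen by name, as receptors, complement factors, adaptors, lysosomal proteins and lineage regulators of these cells. Earlier results of these data were known when they were chosen. Each gene was read on the brightest transcript cluster (the set of probes that covers a transcript) assigned to it alone. All 39 were measured, each by 1 cluster, among 19938 named genes and 28856 clusters in all. Many of the 39 also stand in the list of CORIN+ genes that the study drew from these same arrays, so their number is no independent evidence of a direction. The first pair of populations was CORIN+ and CORIN- cells, separated with an antibody from the ventral midbrain (VM, also called ventral mesencephalon) of C57BL/6N fetuses at E11.5. The second pair was CORIN+LMX1A::GFP+ cells and their CORIN-LMX1A::GFP+ counterpart, both from 129SVEV ESCs with GFP knocked in at the Lmx1a locus, which had been differentiated by SFEBq (aggregate culture in serum-free medium) and were sorted on day 9. Both of these carried the reporter allele and were GFP+, whereas no reporter is named for the fetal cells. The pair derived from ESCs is called ESC-derived CORIN+ and ESC-derived CORIN- here.

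Macrophages of the embryo arise from progenitors of the yolk sac, outside the neural tube, and enter the brain early, before the circulation from the fetal liver contributes many leukocytes. They need the receptor CSF1R and the transcription factor PU.1, encoded by Spi1, and they clear dying cells with the help of complement, Fc receptors and lysosomal enzymes. Neuroectoderm does not give rise to them, so cultures directed to a neural fate serve as a background level for their genes.

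Total RNA from each population was hybridised to 1 Affymetrix whole-transcript array, so there was no replicate, and neither an error nor a p-value can be given for any value or difference. Signals are in log2 units, in which a difference of 1 is 2-fold, and levels of different clusters cannot be set against each other. The median of all clusters was between 7.97 and 8.03 in the 4 arrays. Corin, whose protein was the sorted antigen, had a log2 signal of 11.43 in fetal CORIN+ cells, 7.28 in fetal CORIN- cells, 13.10 in ESC-derived CORIN+ cells and 11.13 in ESC-derived CORIN- cells. Among transcription factors of neural progenitors, Sox2 was at 12.08, 12.14, 12.75 and 12.49 in the same order of arrays. Sox1 was at 9.39, 9.71, 8.52 and 8.77, and Pax6 at 9.79, 11.01, 6.52 and 6.67, both lower in the ESC-derived arrays. Foxa2, a floor plate transcription factor, was at 10.48, 10.31, 11.46 and 11.18.

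Each of the 39 genes had its highest signal in fetal CORIN+ cells, which held for 16.3% of all clusters. In the fetal VM, 32 of the 39 were at least 2-fold higher in CORIN+ than in CORIN- cells, against 2.67% of all clusters, and none was 2-fold lower, against 0.672% of clusters. Their median log2 fold was 2.52 (5.74-fold) and ranged between 0.28 and 5.58, while the median over all clusters was -0.037 with a scaled median absolute deviation of 0.162. In a sorted bulk sample, fewer cells of a type and less RNA per cell cannot be told apart. The 7 genes under 2-fold were Cd14, Tlr2, Gpr34, Itgb2, Trem2, Itgam and Aif1. Aif1 (0.94) and Itgam (0.92) lay just under the threshold, and Fcgr1 (1.02) and Siglech (1.29) just above it.

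**Figure D1:**
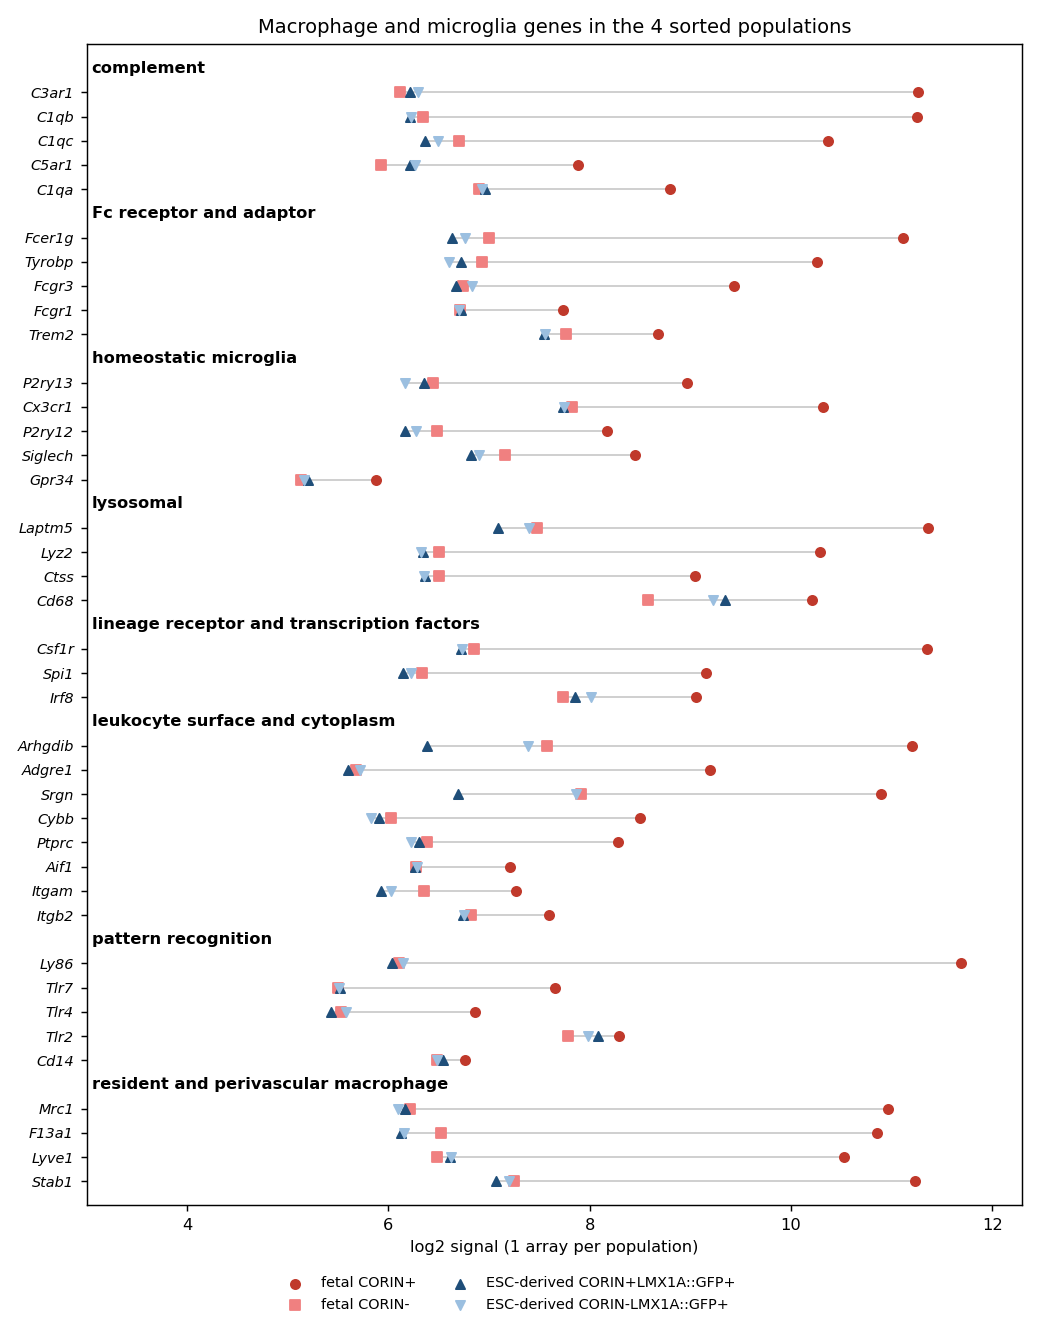
Log2 signal of the 39 macrophage and microglia genes (rows, by group) in the 4 arrays, with 1 symbol per population and a grey line over the range of each gene. The fetal CORIN+ symbol is the rightmost in all 39 rows, and the other 3 lie close together in most rows.

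The lineage receptor and the transcription factors were all higher in fetal CORIN+ cells. Csf1r, the receptor for the growth factors CSF1 and IL-34 on which these cells depend, had a log2 signal of 11.36 in fetal CORIN+ cells, 6.85 in fetal CORIN- cells and 6.72 and 6.73 in ESC-derived CORIN+ and CORIN- cells. The fetal difference was 22.7-fold, and only the fetal CORIN+ array stood above the rest. Spi1 had 9.15 in fetal CORIN+ cells, 6.33 in fetal CORIN- cells, 6.14 in ESC-derived CORIN+ cells and 6.23 in ESC-derived CORIN- cells, a fetal difference of 7.07-fold. IRF8 is a partner of PU.1 in macrophages and microglia. Irf8 differed less (2.49-fold), with 9.05 in the CORIN+ and 7.74 in the CORIN- cells of the fetal VM and with 7.86 and 8.01 in ESC-derived CORIN+ and CORIN- cells.

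PU.1 binds purine-rich sites around the letters GAGGAA, and macrophage promoters often carry such a site near the start in place of a TATA box. RefSeq promoter windows (GRCm38.p6), which reach 250 bases before and 50 bases after a transcript start, were matched to 28 of the 39 genes. The motif was picked after the array values had been seen and was searched on both strands as GAGGAA or TTCCTC. It occurred in a window of 18 of the 28 genes (64.3%), against 31.3% of 27025 genes with a window. A match that began within the 60 bases before the start was found for 11 of the 28 (39.3%), against 7.50% of all genes. The letters AGGAAGT, which overlap the first motif, occurred for 11 of the 28 (39.3%), against 10.7% of genes, and the longer GAGGAAGT for 3 of the 28, against 3.69%. Such matches describe letters in a window and not bound sites. Windows are given for 4 strongly fetal CORIN+ genes that hold a match and for Ly86, the gene with the largest fetal fold, which holds none, each in the direction of the gene with matches in capitals. The C1qb window is chr4:136886151-136886450 on the minus strand, that of Stab1 is chr14:31168592-31168891 on the minus strand, and that of Laptm5 is chr4:130913066-130913365 on the plus strand. The Mrc1 window is chr2:14229164-14229463 and the Ly86 window chr13:37345095-37345394, both on the plus strand.
C1qb: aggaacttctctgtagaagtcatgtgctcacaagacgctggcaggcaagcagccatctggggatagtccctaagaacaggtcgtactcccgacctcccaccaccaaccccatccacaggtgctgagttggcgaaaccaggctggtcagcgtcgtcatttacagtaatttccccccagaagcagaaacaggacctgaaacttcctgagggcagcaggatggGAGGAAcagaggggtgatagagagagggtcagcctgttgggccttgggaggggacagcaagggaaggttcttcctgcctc
Stab1: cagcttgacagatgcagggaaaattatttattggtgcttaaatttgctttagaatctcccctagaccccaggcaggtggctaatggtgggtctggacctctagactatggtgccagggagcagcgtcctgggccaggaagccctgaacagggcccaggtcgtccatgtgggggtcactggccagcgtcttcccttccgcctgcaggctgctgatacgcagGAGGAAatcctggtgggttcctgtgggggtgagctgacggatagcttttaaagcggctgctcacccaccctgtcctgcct
Laptm5: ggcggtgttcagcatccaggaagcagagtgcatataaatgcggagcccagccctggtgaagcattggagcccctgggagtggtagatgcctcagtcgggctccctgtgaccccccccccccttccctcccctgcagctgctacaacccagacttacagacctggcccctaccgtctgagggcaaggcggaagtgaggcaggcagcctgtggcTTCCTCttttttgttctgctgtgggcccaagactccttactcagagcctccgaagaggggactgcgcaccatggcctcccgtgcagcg
Mrc1: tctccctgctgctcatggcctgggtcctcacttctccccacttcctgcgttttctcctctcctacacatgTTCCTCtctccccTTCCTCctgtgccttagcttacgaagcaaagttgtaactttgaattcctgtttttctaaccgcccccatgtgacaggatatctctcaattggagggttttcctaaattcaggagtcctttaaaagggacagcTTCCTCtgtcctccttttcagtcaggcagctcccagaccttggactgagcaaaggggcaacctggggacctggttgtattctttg
Ly86: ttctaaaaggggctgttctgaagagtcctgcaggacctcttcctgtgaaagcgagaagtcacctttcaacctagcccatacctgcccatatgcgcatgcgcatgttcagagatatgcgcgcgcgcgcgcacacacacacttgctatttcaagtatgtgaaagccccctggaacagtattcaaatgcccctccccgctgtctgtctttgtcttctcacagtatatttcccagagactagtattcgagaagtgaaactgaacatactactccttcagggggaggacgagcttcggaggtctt
The match in C1qb and that in Stab1 both begin 30 bases before the start, on the gene's own strand. Laptm5 has a match on the opposite strand 38 bases before the start, and Mrc1 has 3 on the opposite strand, the nearest of them 35 bases before it. Windows of Csf1r and Spi1 were not used here.

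Among the complement genes, all 5 were 2-fold or more higher in fetal CORIN+ cells, with a median log2 fold of 3.67. The 3 chains of C1q, which together form the recognition unit of the classical pathway and tag cells and synapses for uptake, were read separately. C1qb was at 11.25 in fetal CORIN+ cells, 6.34 in fetal CORIN- cells, 6.21 in ESC-derived CORIN+ cells and 6.22 in ESC-derived CORIN- cells (30.1-fold in the fetal pair). C1qc was at 10.37, 6.70, 6.36 and 6.49 in the same order (12.7-fold), and C1qa at 8.80, 6.90, 6.95 and 6.93 (3.72-fold). Each chain was raised in 1 array alone, but the folds of the 3 chains were unequal. C3ar1, the receptor for the C3a fragment, had 11.26 in fetal CORIN+ cells, 6.11 in fetal CORIN- cells, 6.21 in ESC-derived CORIN+ cells and 6.29 in ESC-derived CORIN- cells, or 35.5-fold in the fetal pair. C5ar1, the receptor for C5a, was at 7.88, 5.93, 6.21 and 6.26 (3.87-fold), and its fetal CORIN- signal was the lowest of the 4.

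Of the 5 Fc receptor and adaptor genes, 4 were 2-fold or more higher in fetal CORIN+ cells, with a median log2 fold of 2.69. Fcer1g and Tyrobp encode the small adaptors (the common gamma chain of Fc receptors and DAP12) that signal for many myeloid receptors. Fcer1g had a log2 signal of 11.12 in fetal CORIN+ cells, 7.00 in fetal CORIN- cells, 6.63 in ESC-derived CORIN+ cells and 6.76 in ESC-derived CORIN- cells, and was 17.4-fold higher in the fetal CORIN+ population. Tyrobp had 10.26, 6.93, 6.72 and 6.60, a fetal log2 fold of 3.32. The receptors that pair with them followed with smaller folds. Fcgr3, a low-affinity receptor for IgG, had 9.43, 6.74, 6.68 and 6.83 in the 4 arrays (6.47-fold), and signals of related Fc receptors cannot be told apart where probes are shared. Fcgr1, the high-affinity receptor, had 7.73 in fetal CORIN+ cells, 6.71 in fetal CORIN- cells, 6.72 in ESC-derived CORIN+ cells and 6.70 in ESC-derived CORIN- cells (2.03-fold), and its log2 fold was 0.84, under the threshold, once 32 was added to the linear signals. TREM2 is a lipid-sensing receptor that signals through DAP12. Trem2 was under 2-fold, with 8.68 in fetal CORIN+ cells, 7.77 in fetal CORIN- cells, 7.55 in ESC-derived CORIN+ cells and 7.56 in ESC-derived CORIN- cells (1.88-fold).

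The homeostatic microglia genes, which mark unstimulated microglia of the later brain, had a median log2 fold of 1.68, and 4 of 5 were 2-fold or more higher in fetal CORIN+ cells. Cx3cr1, the receptor for the neuronal chemokine fractalkine, was at 10.32 in fetal CORIN+ cells, 7.82 in fetal CORIN- cells and 7.74 in both ESC-derived arrays (5.65-fold in the fetal pair). P2ry13 was at 8.96 in fetal CORIN+ cells, 6.44 in fetal CORIN- cells, 6.35 in ESC-derived CORIN+ cells and 6.17 in ESC-derived CORIN- cells (5.74-fold), and its neighbour P2ry12 at 8.17, 6.48, 6.17 and 6.28 (3.21-fold). Both encode receptors for ADP, and P2RY12 steers the processes of microglia toward injury. Siglech, a sialic acid-binding lectin found on microglia and plasmacytoid dendritic cells, was at 8.45, 7.16, 6.82 and 6.90 (2.45-fold). Gpr34, a lysophosphatidylserine receptor, was at 5.88 in fetal CORIN+ cells, 5.13 in fetal CORIN- cells, 5.20 in ESC-derived CORIN+ cells and 5.16 in ESC-derived CORIN- cells (1.68-fold). Fetal CORIN+ cells were highest for Gpr34 as well, but the difference was under 2-fold.

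The lysosomal genes were all 2-fold or more higher in fetal CORIN+ cells, with a median log2 fold of 3.17. Laptm5, a lysosomal membrane protein of blood cells, was at 11.36 in fetal CORIN+ cells, 7.48 in fetal CORIN- cells, 7.08 in ESC-derived CORIN+ cells and 7.39 in ESC-derived CORIN- cells (14.8-fold). Lyz2, the lysozyme of macrophages and neutrophils, was at 10.29, 6.50, 6.34 and 6.32 (13.8-fold), and Ctss, a cysteine protease, at 9.04, 6.50, 6.36 and 6.35 (5.83-fold). In these 3 genes the arrays other than fetal CORIN+ lay within a narrow band. Cd68, a glycoprotein of late endosomes, was different, with 10.21 in fetal CORIN+ cells, 8.57 in fetal CORIN- cells, 9.34 in ESC-derived CORIN+ cells and 9.22 in ESC-derived CORIN- cells. It was 3.10-fold higher in fetal CORIN+ than in fetal CORIN- cells, but only 0.93 log2 units above the ESC-derived mean, as the ESC-derived cells lay above the fetal CORIN- cells. CD68 is also made by other cells with many lysosomes.

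Of 8 genes for leukocyte surface and cytoplasmic proteins, 5 were 2-fold or more higher in fetal CORIN+ cells, with a median log2 fold of 2.19. Ptprc, which encodes the pan-leukocyte phosphatase CD45, was at 8.28 in fetal CORIN+ cells, 6.38 in fetal CORIN- cells, 6.30 in ESC-derived CORIN+ cells and 6.22 in ESC-derived CORIN- cells (3.74-fold). Adgre1, which encodes an adhesion receptor used as a macrophage antigen, was at 9.19, 5.68, 5.60 and 5.72 (11.4-fold), and Cybb, the catalytic subunit of the phagocyte NADPH oxidase, at 8.50, 6.02, 5.91 and 5.83 (5.59-fold). The integrin chains and IBA1 differed less. Itgam (CD11b) was at 7.27 in fetal CORIN+ cells, 6.36 in fetal CORIN- cells, 5.93 in ESC-derived CORIN+ cells and 6.03 in ESC-derived CORIN- cells (1.89-fold), and its partner Itgb2 (CD18) was at 7.60, 6.82, 6.74 and 6.75 (1.71-fold). Aif1, the gene of the widely stained microglial protein IBA1, was at 7.21, 6.27, 6.26 and 6.28 (1.92-fold). In all 3 the fetal CORIN+ array was the highest, but none passed 2-fold. Arhgdib, a cytoplasmic protein of blood cells, was at 11.21 in fetal CORIN+ cells, 7.57 in fetal CORIN- cells, 6.38 in ESC-derived CORIN+ cells and 7.39 in ESC-derived CORIN- cells (12.4-fold in the fetal pair). Srgn, the core protein of a proteoglycan in granules of blood cells and in endothelium, was at 10.90, 7.91, 6.69 and 7.86 (7.92-fold). For both, ESC-derived CORIN+ cells stood below the other 3 populations.

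Genes of pattern recognition were the most uneven group, with 3 of 5 genes 2-fold or more higher in fetal CORIN+ cells, a median log2 fold of 1.33 and both the smallest and the largest fold of the 39. Ly86 encodes MD-1, the secreted partner of the Toll-like receptor homologue CD180. It was at 11.69 in fetal CORIN+ cells, 6.11 in fetal CORIN- cells, 6.03 in ESC-derived CORIN+ cells and 6.14 in ESC-derived CORIN- cells, which is 47.9-fold in the fetal pair. Tlr7, an endosomal receptor for RNA, was at 7.65, 5.50, 5.52 and 5.51 (4.46-fold), and Tlr4, the receptor for lipopolysaccharide, at 6.86, 5.53, 5.43 and 5.58 (2.52-fold). With 32 added to the linear signals the log2 fold of Tlr4 was 0.92, under the threshold. Tlr2, a receptor for bacterial lipoproteins, was at 8.29 in fetal CORIN+ cells, 7.78 in fetal CORIN- cells, 8.08 in ESC-derived CORIN+ cells and 7.98 in ESC-derived CORIN- cells (1.43-fold). Cd14, the co-receptor of TLR4, was at 6.76, 6.48, 6.55 and 6.48 (1.22-fold). For Tlr2 and Cd14 the fetal CORIN+ cells were thus close to the ESC-derived level.

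Genes known from resident macrophages of perivascular spaces and meninges formed the tightest group, with log2 folds between 3.99 and 4.76 for all 4. Mrc1, the mannose receptor CD206, was at 10.96 in fetal CORIN+ cells, 6.21 in fetal CORIN- cells, 6.16 in ESC-derived CORIN+ cells and 6.09 in ESC-derived CORIN- cells (27.0-fold). F13a1, a transglutaminase subunit of clotting factor XIII, was at 10.86, 6.53, 6.13 and 6.15 (20.1-fold). Lyve1, a hyaluronan receptor shared with lymphatic endothelium, was at 10.53, 6.48, 6.61 and 6.62 (16.5-fold). Stab1, a scavenger receptor shared with sinusoidal endothelium, was at 11.24, 7.25, 7.07 and 7.20 (15.9-fold). The group's median log2 fold of 4.19 stood beside 1.68 for the homeostatic microglia genes, and the ranges of the groups did not overlap, since P2ry13 had the highest of the microglia folds with 2.52. This difference was not tested, and it holds only for the genes placed in these lists. The 9 further genes of resident macrophages had a median log2 fold of 1.56, between -0.32 for Cd163 and 3.22 for Dab2. Of these, 6 were 2-fold or more higher in fetal CORIN+ cells. The 5 measured genes of later microglia had a median of 1.34, with 3.85 for Fcrls.

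**Figure D2:**
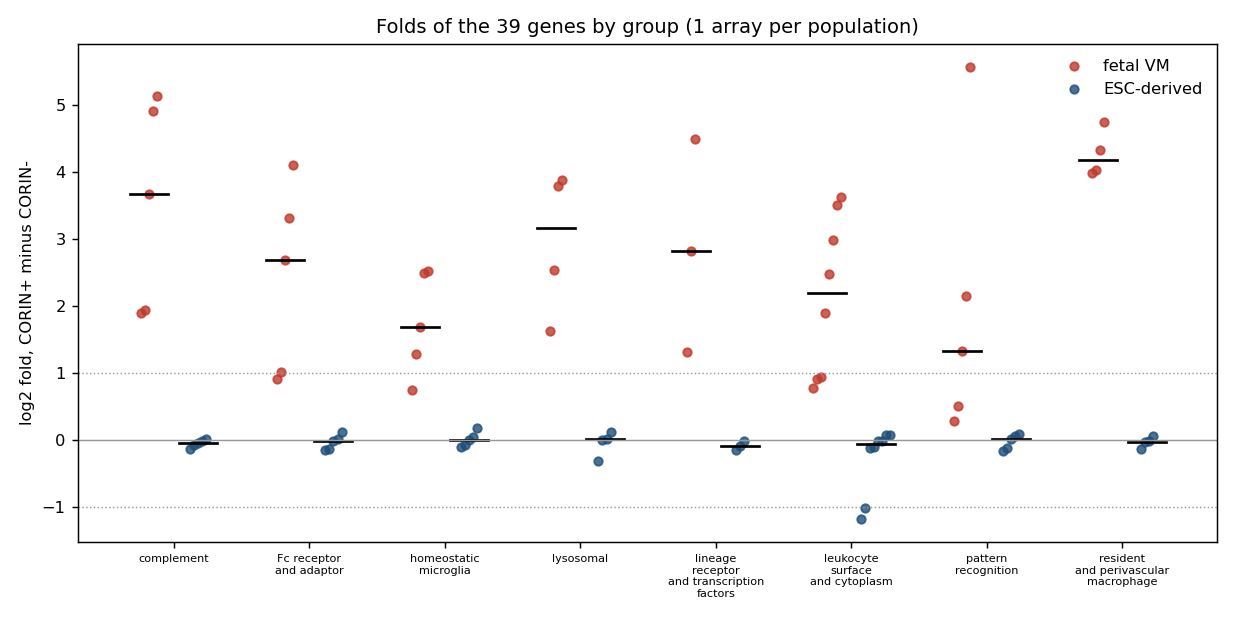
Log2 fold (CORIN+ minus CORIN-, 1 array per population) of each of the 39 genes by group, with fetal VM genes in red, ESC-derived genes in blue, bars at the group medians and dotted lines at 2-fold. All 39 fetal folds lie above 0, up to 5.58 for Ly86, and 37 of the ESC-derived folds lie between the dotted lines, the exceptions being Arhgdib and Srgn.

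The signals of fetal CORIN- cells were set against the level of the ESC-derived cells. Taken against the mean of the ESC-derived arrays, none of the 39 genes was 2-fold higher in fetal CORIN- cells, against 3.87% of all clusters, and none was 2-fold lower. The median difference was 0.11 log2 units, beside 0.019 over all clusters. For 27 of the 39 it was within 0.25 log2 units, which held for 61.5% of clusters, and for 36 within 0.5, which held for 80.5%. The signal of fetal CORIN- cells was above both ESC-derived arrays for 23 of the 39 genes and below both for 10, against 44.4% and 37.9% of clusters, and between them for 6. The 3 genes beyond 0.5 were Cd68, whose fetal CORIN- cells lay 0.71 below the ESC-derived mean (a difference of -0.71), Arhgdib with 0.69 and Srgn with 0.64. For Arhgdib and Srgn the ESC-derived mean was lowered by ESC-derived CORIN+ cells, and fetal CORIN- cells were within 0.25 of ESC-derived CORIN- cells.

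The fetal CORIN+ cells were at least 2-fold above the ESC-derived mean for 33 of the 39 genes, against 3.36% of clusters, with a median difference of 2.68. Measured against the highest of the other 3 arrays, a stricter gap, 31 genes were 2-fold or more higher in fetal CORIN+ cells, against 1.08% of clusters, and 15 at least 8-fold higher. Over the whole array 25 clusters (0.0866%) had such an 8-fold gap. Of the 10 genes with the largest gap 7 were among the 39, as were 14 of the first 20 and 22 of the first 50.

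**Figure D3:**
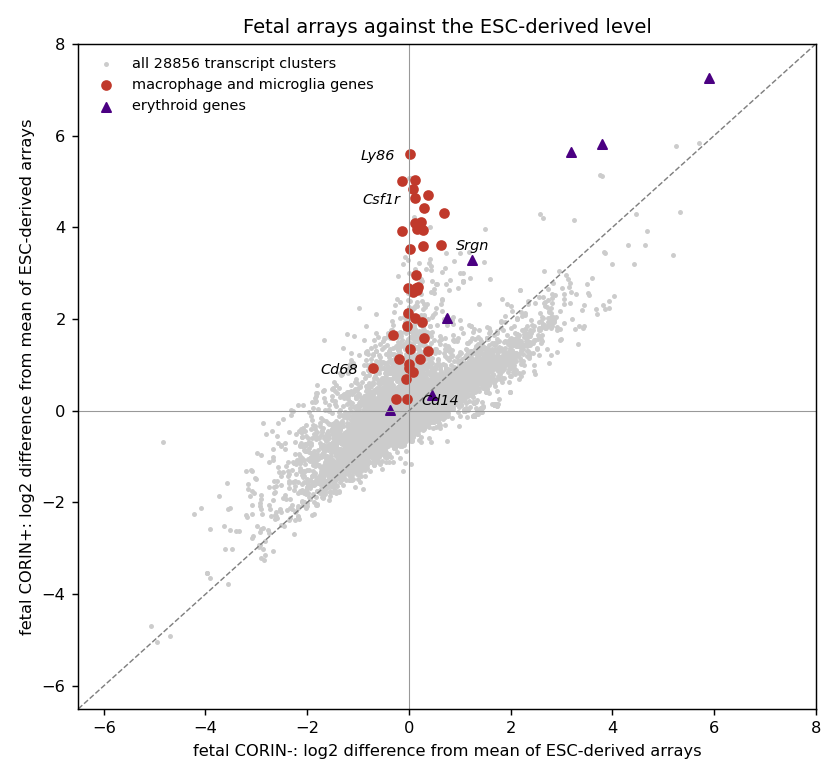
Log2 difference of fetal CORIN- (horizontal axis) and fetal CORIN+ cells (vertical axis) from the mean of both ESC-derived arrays, with all 28856 clusters in grey, the 39 macrophage and microglia genes in red and 7 erythroid genes as purple triangles. The red points form a column within 0.71 of 0 on the horizontal axis that reaches 5.60 on the vertical axis, whereas Hbb-y, the rightmost triangle, is 5.91 above the ESC-derived mean in fetal CORIN- cells.

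In the ESC-derived cells the same genes did not separate the populations in the fetal direction. These arrays were taken as the background level, so small folds in this pair carry little weight by themselves. Of the 39 genes, 31 were above the 20th percentile of signal in at least 1 ESC-derived array, and 3 above the 50th. None was 2-fold higher in ESC-derived CORIN+ cells, against 0.353% of clusters, 2 were 2-fold lower, against 0.468%, and the remaining 37 differed by less. The median log2 fold was -0.015, beside 0.0024 over all clusters, and 25 of the 39 were below 0. The arrays lay within 0.25 of each other for 36 of the 39 genes, as they did for 83.5% of clusters. Apart from Arhgdib (2.01-fold lower) and Srgn (2.26-fold lower), the gene beyond that limit was Laptm5, with a log2 fold of -0.31. The calls of Arhgdib and Srgn were lost with another scale: with 32 added to the linear signals the log2 folds were -0.79 for Arhgdib and -0.97 for Srgn, and Arhgdib was at -0.98 after quantile normalization. Of 12 endothelial genes 2 were also 2-fold lower in ESC-derived CORIN+ cells, as were 4 of 12 mesenchyme genes. The lowest log2 folds among the endothelial genes were -1.70 for the cadherin Cdh5, -1.41 for the sialomucin Emcn, -0.90 for Pecam1 and -0.88 for Flt1. Kdr was the only one above 0 (0.20), and the median log2 fold of the 12 endothelial genes was -0.32. Their median signal over the list was 7.11 in ESC-derived CORIN+ cells and 7.79 in ESC-derived CORIN- cells, and the part of these cells in the values of Arhgdib and Srgn was not tested.

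Further genes of the same pathways were read from lists of other macrophage, signalling and ligand genes. Of 8 measured genes for ligands and partners of these receptors, 1 was 2-fold higher in fetal CORIN+ cells. Csf1, a ligand of CSF1R, was at 8.60 in fetal CORIN+ cells, 7.87 in fetal CORIN- cells, 8.99 in ESC-derived CORIN+ cells and 8.45 in ESC-derived CORIN- cells, and the log2 fetal fold of the other ligand, Il34, was -0.02. The gene for fractalkine, Cx3cl1, had a fetal log2 fold of -0.11, and Cd200, a neuronal restraint on myeloid cells, had -0.93. The gene that passed was Tgfb1, a growth factor that microglia require (3.83-fold). Tgfb1 was at 9.48 in fetal CORIN+, 7.54 in fetal CORIN-, 8.06 in ESC-derived CORIN+ and 8.30 in ESC-derived CORIN- cells. Of 4 haematopoietic transcription factor genes, Runx1 (4.05-fold) and Maf (3.40-fold) were 2-fold or more higher in fetal CORIN+ cells, while Ikzf1 had a log2 fold of 0.78 and Cebpa 0.42.

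Effectors downstream of the receptors were partly higher. Among the Toll-like receptor partners 6 of 9 were 2-fold higher in fetal CORIN+ cells, led by Cd180, the receptor that LY86 accompanies, with a log2 fold of 3.58. Unc93b1, which carries endosomal Toll-like receptors to their compartment, was 4.09-fold higher, followed by Tlr13 (3.24-fold), Tlr1 (2.98-fold) and Ly96 (2.90-fold). For Unc93b1 and Ly96 both ESC-derived signals lay above that of fetal CORIN- cells. Ly96 was at 9.49 in fetal CORIN+, 7.95 in fetal CORIN-, 9.10 in ESC-derived CORIN+ and 8.94 in ESC-derived CORIN- cells. Of 4 measured NADPH oxidase subunits 3 were higher, namely Cyba (3.85-fold), Rac2 (3.62-fold) and Ncf1 (2.32-fold). Cyba was not limited to fetal CORIN+ cells, with 11.12 there, 9.17 in fetal CORIN- cells, 11.16 in ESC-derived CORIN+ cells and 11.11 in ESC-derived CORIN- cells. Of 7 myeloid signalling genes 4 were higher, with 9.88-fold for the actin regulator Nckap1l and 4.08-fold for the phosphatase gene Inpp5d. Vav1, another of the 4, was under 2-fold with 32 added to the linear signals (log2 fold 0.90). Neither of 2 other Fc receptor genes, Fcgr2b and Fcgr4, reached 2-fold, with log2 folds of 0.57 and 0.67.

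Genes that mark later or other macrophage states were mixed. Of 9 further genes of resident macrophages, 6 were 2-fold or more higher in fetal CORIN+ cells, among them the endocytic adaptor Dab2 (9.30-fold, with a log2 fold of 3.22 and of 1.64 for the mean over its clusters), the chemokine Pf4 (6.54-fold) and the efferocytosis receptor Mertk (4.13-fold). Ms4a7, also among the 6, was under 2-fold with 32 added to the linear signals (log2 fold 0.85). For Dab2 and Mertk both ESC-derived signals lay above that of fetal CORIN- cells. Mertk was at 9.74 in fetal CORIN+, 7.69 in fetal CORIN-, 8.74 in ESC-derived CORIN+ and 8.81 in ESC-derived CORIN- cells. The haemoglobin scavenger receptor Cd163 had a log2 fold of -0.32 and the sialoadhesin gene Siglec1 0.11. Of 5 genes of later microglia 3 were 2-fold higher. Fcrls was at 10.02 in fetal CORIN+ cells, 6.17 in fetal CORIN- cells, 5.88 in ESC-derived CORIN+ cells and 6.22 in ESC-derived CORIN- cells. Tmem119 (3.70-fold) and Olfml3 (2.53-fold) also had signals in the ESC-derived cells above those of fetal CORIN- cells, as for Tmem119 with 8.28 in fetal CORIN- cells, 8.90 in ESC-derived CORIN+ cells and 9.42 in ESC-derived CORIN- cells. Sall1, a transcription factor of microglia that neural progenitors also express, had a log2 fold of -0.13. None of 5 MHC class II genes, which present antigen, reached 2-fold, and their log2 folds lay between -0.21 and 0.18. Of 10 chemokine and cytokine genes 3 were 2-fold higher. Ccl3 was at 11.98 in fetal CORIN+ cells, 6.96 in fetal CORIN- cells, 6.83 in ESC-derived CORIN+ cells and 7.00 in ESC-derived CORIN- cells (32.4-fold), while its close relative Ccl4 was 1.06-fold and the inflammatory cytokines Il1b and Tnf were 1.29-fold and 1.11-fold.

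Markers of other cells that the sorted fraction could hold were counted in the same way. None of 4 monocyte genes and none of 9 T and NK cell genes was 2-fold higher in fetal CORIN+ cells, with log2 folds up to 0.85 and 0.17. The chemokine receptor gene of monocytes, Ccr2, was at 5.98 in fetal CORIN+ cells, 5.57 in fetal CORIN- cells, 5.51 in ESC-derived CORIN+ cells and 5.50 in ESC-derived CORIN- cells. Among 5 B cell genes only Cd79b passed 2-fold (2.38-fold), and Cd79a and Ms4a1 had log2 folds of -0.09 and -0.07. Among 8 neutrophil genes Mpo (4.49-fold), the myeloperoxidase of granulocyte precursors, and Ngp (2.20-fold) passed, and among 5 mast cell genes the protease gene Cpa3 (3.41-fold). The log2 fold of Ngp was 0.86, under the threshold, with 32 added to the linear signals. None of 3 megakaryocyte and platelet genes passed.

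Mesenchyme genes, most erythroid genes and a few endothelial genes were also higher in fetal CORIN+ cells. All 12 mesenchyme genes were 2-fold or more higher in fetal CORIN+ cells, with log2 folds between 1.70 and 2.83 and a median of 2.19. Their median signal was 11.29 in fetal CORIN+ cells, 8.79 in fetal CORIN- cells, 8.01 in ESC-derived CORIN+ cells and 9.06 in ESC-derived CORIN- cells. Of 7 erythroid genes 5 were higher, with a median log2 fold of 1.36 for the list, and median signals of 10.65 in fetal CORIN+ cells, 8.61 in fetal CORIN- cells, 7.02 in ESC-derived CORIN+ cells and 6.83 in ESC-derived CORIN- cells. The embryonic globin gene Hbb-y was at 13.57, 12.21, 6.21 and 6.39, so that the CORIN- fetal cells too stood far above the ESC-derived cells. Probes of related globin genes may share sequence, so their signals cannot be told apart. Of 12 endothelial genes 3 were higher, Cdh5 (5.45-fold), Emcn (3.06-fold) and Ramp2 (2.28-fold), with a median log2 fold of 0.42 for the list and median signals of 7.85 in the CORIN+ and 7.39 in the CORIN- cells of the fetal VM. The part of these cells in the macrophage values was not tested.

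Neural genes were counted as well. None of 10 neural progenitor genes was 2-fold higher in fetal CORIN+ cells and Pax6 was lower (log2 fold -1.23). All 10 neuronal genes had log2 folds below 0, with a median of -0.52, and Syt1 was 2-fold lower (log2 fold -1.11). Of 7 floor plate genes 2 were higher, Ferd3l (3.90-fold) and Slit2 (2.77-fold). Of 11 immediate early and stress genes that respond to tissue dissociation, 4 were higher in fetal CORIN+ cells. They were Zfp36 (5.46-fold), Fos (4.40-fold), Fosb (2.48-fold) and Atf3 (2.12-fold). The log2 fold of Atf3 was just under 1 with 32 added, but stayed above 1 after quantile normalization and median centring. The other 7 were under 2-fold, among them Jun (log2 fold 0.41), Ier2 (0.13) and Dusp1 (-0.06). The median log2 fold of that list was 0.41. Its median signals, which fall on different genes, were 9.77 in the CORIN+ and 8.05 in the CORIN- cells of the fetal VM. The part of this response in the result was not tested. The sorting methods describe, for cultured cells, a CORIN antibody and a dye for dead cells, and they name no leukocyte marker. They give no separate account of gating for the fetal cells, and the part of the sorting in these values was not tested.

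**Figure D4:**
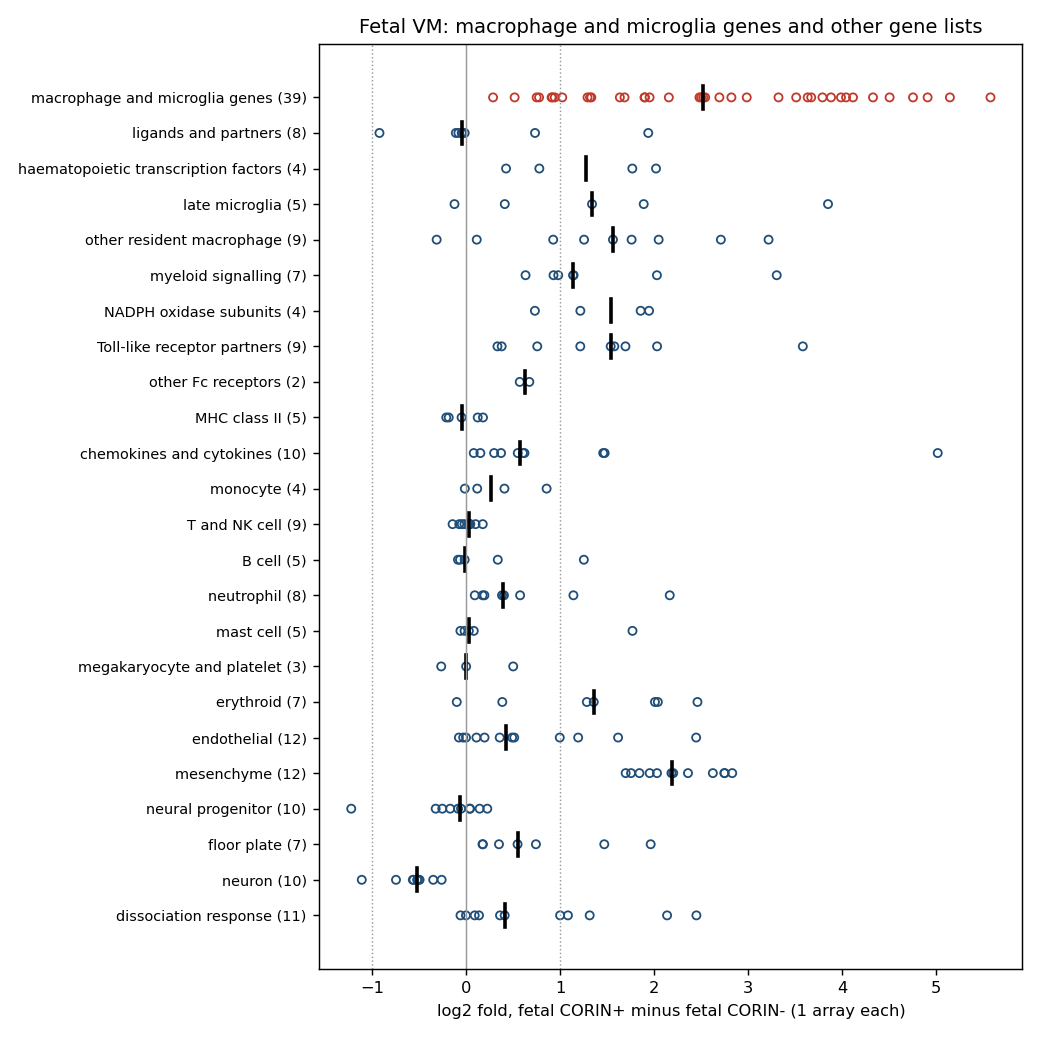
Log2 fold in the fetal VM (CORIN+ minus CORIN-, 1 array each) of the 39 macrophage and microglia genes (red) and of the measured genes of 23 other lists (blue), with the number of genes in brackets, bars at the medians and dotted lines at 2-fold. The 39 genes have the highest median (2.52), mesenchyme genes follow with 2.19, and T and NK cell genes lie within 0.18 of 0.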

How the data were processed

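RNA of 4 sorted populations was measured with 1 array each. After whole-transcript labelling, the authors used Affymetrix arrays and GeneSpring and deposited 1 table of log2 signals for 28856 clusters. Probe summarization, normalization between arrays, genome build and detection calls were not given in the sources used here. The array annotation pairs 21789 clusters with 1 symbol and 1621 with several, and 5446 are unnamed here. Symbols of 21698 clusters were updated through gene identifiers with GRCm38.p6 names. Clusters with several symbols gave no gene.

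Log2 folds were CORIN+ minus CORIN-, called at 2-fold with no test. The ESC-derived level was the mean of both ESC-derived arrays. Members and lists were chosen with earlier results of these data known. All 39 members were named. From each of 23 other lists (166 of 185 genes measured, the others not analysed here), up to 5 genes past 2-fold and defining markers were named, as were the 10 further genes with the largest gap of fetal CORIN+ cells over the other arrays. Some further list genes were named after their values were seen, as were the motifs.

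The alternatives were quantile normalization, median centring, filters at the 20th and 50th percentiles of signal, addition of 32 to linear signals, cutoffs at 1.5-fold and 3-fold, the mean over clusters of a gene, and the higher ESC-derived array as the level. The calculation of folds, calls and medians was tested on simulated arrays with known folds. Python 3.11.15, numpy 2.4.6, pandas 2.3.3 and matplotlib 3.10.9 were used.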

Additional observations from a re-analysis of the deposited data

Results flagged for a closer look

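A total of 8 genes changed at least 2-fold in opposite directions in the fetal and ESC-derived comparisons, and the difference between the comparisons was not tested. Arhgdib had a log2 fold of 3.63 in the fetal VM and -1.01 in the ESC-derived cells, a difference of 4.64. For Srgn the values were 2.99 and -1.18, a difference of 4.16. The endothelial genes Cdh5 (2.45 and -1.70) and Emcn (1.62 and -1.41) differed by 4.14 and 3.03. Among mesenchyme genes, Foxc1 differed by 3.17, Foxc2 by 3.90, Tbx18 by 3.83 and Lum by 4.15. None of the other 37 macrophage and microglia genes did so.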

How the results depend on the processing

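No fetal fold of the 39 genes changed sign, while the ESC-derived folds of Trem2, Cx3cr1, Csf1r, Itgb2 and Lyve1, all close to 0, turned positive after quantile normalization. Quantile normalization and median centring moved none of the 39 fetal folds beyond the spread over all clusters. Adding 32 to the linear signals moved 31 of the 39 beyond it, all of them to smaller folds. In the ESC-derived pair, Arhgdib fell under 2-fold after quantile normalization (-0.98) and, with 32 added, at -0.79, as did Srgn at -0.97. The count of genes past 2-fold in the fetal VM was 32, 30 with 32 added to the linear signal, 37 at 1.5-fold and 28 at 3-fold. Adding 32 lowered the median log2 fold of all 39 genes to 2.19, of complement genes to 3.32, of Fc receptor and adaptor genes to 2.38, of homeostatic microglia genes to 1.40 and of lysosomal genes to 2.79. Keeping clusters above the 50th percentile left 30 genes, most of which passed only through fetal CORIN+ cells, where they are high, so that larger medians were built in. It gave 3.15 for the 30 genes, 4.29 for complement, 3.01 for Fc receptor and adaptor and 2.09 for homeostatic microglia genes, the last also at the 20th percentile. Above the 50th percentile 3 genes remained for fetal CORIN- cells against the ESC-derived level, with a median of -0.25. At 1.5-fold, 2 genes (Arhgdib and Srgn) were above that level in fetal CORIN- cells. With 32 added, Ms4a7, Vav1, Ngp and Atf3 were also under 2-fold in the fetal VM, and with the mean over its clusters the log2 fold of Dab2 was 1.64. Signals near the ESC-derived level limit small folds, and 1 array per population leaves no measure of error.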

Other observations

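Outside the 39 genes, the largest gaps between fetal CORIN+ cells and the highest of the other 3 arrays belonged to 10 genes, several of them known from blood cells. Ms4a6c, a membrane protein of myeloid cells, had a log2 signal of 10.67 in fetal CORIN+ cells, 5.59 in fetal CORIN- cells, 5.54 in ESC-derived CORIN+ cells and 5.63 in ESC-derived CORIN- cells, a gap of 33.0-fold. The chemokine gene Ccl3 followed with 31.6-fold, then the leukocyte tetraspanin Cd53 with 17.4-fold and Ifi207, a member of an interferon-inducible family, with 16.3-fold. Cd53 was at 10.34, 6.22, 6.07 and 6.18 in the 4 arrays, and Ifi207 at 10.02, 5.99, 5.87 and 5.88. The gap was 13.9-fold for Fcrls, 9.60-fold for Nckap1l, 8.27-fold for the actin-bundling protein gene Lcp1 and 8.13-fold for Trim30a. For Cd180 and Ms4a6b the gap was 3.58 and 3.33 log2 units. Each of the 10 was highest in fetal CORIN+ cells, as their choice required.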
